A study of Mus musculus with 6 samples.

Results

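Chemokines and their receptors were examined in primary mammary epithelial cells with and without Plk2, a polo-like serine/threonine kinase. The set is a list of 42 genes, 28 ligands and 14 receptors, named by gene and taken from the arrays by the transcript that each probe was designed for. A total of 41 genes matched a probe, of 20145 genes that could be named on the array. Of these 41, 33 were bright enough to test, 23 of 27 matched ligands and 10 of 14 receptors, among 24609 entries tested in all. The array values measure transcripts in the whole preparation, so fewer cells of a type and less RNA per cell cannot be told apart.

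The study compared 3 samples labelled wild type (Plk2 +/+) with 3 labelled null (Plk2 -/-). All came from female mice of mixed 129sv/C57Bl6 strain, 8 weeks old, whose mammary glands were dissociated, and no treatment or time series was part of the design. How the Plk2 allele was made and whether the 3 samples of a group came from separate mice are not stated in the labels, so the p-values measure the spread between these samples, which may be technical. The comparison asks which transcripts differ when Plk2 is missing.

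Chemokines are small secreted or membrane-bound proteins that steer migrating cells along gradients. Their receptors couple to G proteins and sit mainly on leukocytes, and many ligands are made by epithelium, endothelium, fibroblasts and macrophages. Ligands are commonly divided into inflammatory ones, induced by NF-kB or interferon signalling, and homeostatic ones, which place lymphocytes in lymphoid and mucosal tissue. In the mammary gland, resident macrophages, lymphocytes and the milk-secreting epithelium all use this system, for example when CCL28 draws antibody-producing cells to the lactating gland.

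Levels below are log2 processed signals relative to the 75th percentile of each array, and a difference is the null mean minus the wild-type mean on that scale. Levels of different genes come from different probes and were not set against each other. The sums over marker lists given below add such levels, so genes with brighter probes weigh more in them. Plk2 itself was well above background on all 3 wild-type arrays and on none of the null arrays, at 2.26 ± 0.10 against -7.06 ± 0.12 (SD, n = 3 each; limma adjusted p = 3.61e-06). Each array had 50.2% to 54.7% of its probes well above background. Arrays correlated across probes at 0.987 or more for pairs of wild-type samples, 0.975 or more for pairs of null samples and 0.960 to 0.980 for mixed pairs. The 6 arrays shared 1 slide, on which the wild-type samples filled row 1 and the null samples row 2, so an effect of the row and an effect of the genotype cannot be told apart. All 10 epithelial marker genes were well above background on all 6 arrays, with a median difference of 0.077. Single epithelial markers went both ways, with Krt14 at 0.92, Cldn7 at 0.34 and Cldn4 at -0.71, each at an unadjusted p under 0.05 and none past an adjusted p of 0.05 (limma).

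RefSeq promoter windows on the GRCm38.p6 assembly, each of 300 bases from 250 before to 50 after a transcript start, were available for 32 of the 42 genes, 34 windows in all. The windows below belong to Ccr6, a receptor with one of the smallest p-values, and to Cxcr3 with the ligands Cxcl9 and Cxcl10, which differed in sign from their receptor. They are written 5′ to 3′ on the strand of the gene, and capitals mark matches to the NF-kB consensus, the interferon response core (GAAA, any 2 bases, GAAA) and the STAT palindrome (TTC, any 3 bases, GAA), searched on both strands.
Ccr6, chr17:8235793-8236092, plus strand: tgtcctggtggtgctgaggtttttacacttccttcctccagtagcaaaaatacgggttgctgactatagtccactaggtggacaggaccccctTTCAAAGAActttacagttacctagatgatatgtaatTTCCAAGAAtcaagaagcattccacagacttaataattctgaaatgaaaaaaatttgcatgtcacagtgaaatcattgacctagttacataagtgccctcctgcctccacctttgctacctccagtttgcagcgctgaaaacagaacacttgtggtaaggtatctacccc
Ccr6, chr17:8242276-8242575, plus strand: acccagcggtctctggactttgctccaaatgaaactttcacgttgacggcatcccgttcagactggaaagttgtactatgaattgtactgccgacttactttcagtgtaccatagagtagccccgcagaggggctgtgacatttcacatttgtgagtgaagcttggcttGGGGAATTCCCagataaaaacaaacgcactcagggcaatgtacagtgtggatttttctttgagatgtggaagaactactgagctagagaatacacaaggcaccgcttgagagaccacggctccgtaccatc
Cxcr3, chrX:101734098-101734397, minus strand: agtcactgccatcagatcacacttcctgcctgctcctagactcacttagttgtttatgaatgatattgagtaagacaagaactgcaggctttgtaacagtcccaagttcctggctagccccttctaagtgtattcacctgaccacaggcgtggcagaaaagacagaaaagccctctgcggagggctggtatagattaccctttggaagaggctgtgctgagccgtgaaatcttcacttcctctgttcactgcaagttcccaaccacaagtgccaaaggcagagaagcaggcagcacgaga
Cxcl9, chr5:92328030-92328329, minus strand: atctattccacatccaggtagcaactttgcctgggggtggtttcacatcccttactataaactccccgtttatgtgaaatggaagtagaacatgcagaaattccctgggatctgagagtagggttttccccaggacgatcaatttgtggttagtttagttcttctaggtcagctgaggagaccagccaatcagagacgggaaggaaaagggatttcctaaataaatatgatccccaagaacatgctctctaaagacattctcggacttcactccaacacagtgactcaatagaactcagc
Cxcl10, chr5:92348840-92349139, minus strand: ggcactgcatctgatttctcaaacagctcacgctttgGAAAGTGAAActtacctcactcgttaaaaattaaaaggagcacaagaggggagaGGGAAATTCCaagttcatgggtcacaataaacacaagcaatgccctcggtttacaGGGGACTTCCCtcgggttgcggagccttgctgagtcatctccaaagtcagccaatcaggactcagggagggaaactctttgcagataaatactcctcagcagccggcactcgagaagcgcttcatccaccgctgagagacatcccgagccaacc

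The NF-kB consensus was present in 8 of the 34 windows (23.5%), those of Ccl20, Ccl9, Ccr1, Ccr3, Ccr6, Cxcl1, Cxcl10 and Cxcl2, against 8.46% of 32851 windows of the same length. The interferon response core was in 3 windows (Ccl19, Cxcl10 and Cxcl14; 8.82%), against 3.44% of all windows. The STAT palindrome was in 3 (Ccl17, Ccr6 and Cxcl14), against 8.30% of all. A TATAAA run on the gene's strand was in 8 windows, against 8.32% of all. Where a run of capitals exceeds the length of the motif, as in the second Ccr6 window and in Cxcl10, 2 matches to the NF-kB consensus overlap. In the windows shown, Cxcl10 held both the NF-kB consensus and the interferon core, Cxcl9 and Cxcr3 held none of the motifs marked, and the 2 windows of Ccr6 held different motifs. A match is a description of letters and marks no binding site.

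Most chemokine and receptor transcripts had lower mean levels in the null samples, 29 of the 33 tested, and the median was lower over the receptors than over the ligands. The median difference was -0.63 over the 33 genes, -0.56 over the 23 ligands and -1.71 over the 10 receptors, beside 0.031 over all entries. With only genes well above background on all 6 arrays, the receptor median was -1.47 and the ligand median -0.56. When the background was corrected with normexp, the receptor median was -0.63 and the ligand median -0.49. With the authors' deposited values they were -0.63 and -0.59. The gap between receptors and ligands was thus small in the last 2 settings, and it was not tested. The ligand median was -0.22 without null sample 2, -0.32 without wild-type sample 1 and -0.31 with spike-in scaling. The most negative differences were those of the receptors Ccr7 and Ccr6 and the ligand Ccl5. The 4 genes with a higher null mean were the interferon-induced ligands Cxcl9 and Cxcl10, the membrane-bound ligand Cx3cl1 and its receptor Cx3cr1.

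None of the 33 genes passed an adjusted p of 0.05 (limma with Benjamini-Hochberg adjustment over all entries), and the lowest was 0.0647. Across all entries 0.337% were lower and 0.228% higher at that threshold. At an adjusted p under 0.1, 6 were lower (Ccr6, Ccr9, Ccl5, Cxcl5, Ccr7 and Cxcr3) and 0 higher, where 3.04% of all entries were lower and 3.62% higher. At an unadjusted p under 0.05, 14 were lower and 2 higher, where 9.54% of all entries were lower and 13.5% higher. Ccr9, in both counts of lower genes, and Ccr10, in the second, were well above background on 3 wild-type arrays and 1 null array each. Their wild-type arrays alone met the filter. The 3 null values lay below all 3 wild-type values for 12 genes and above them for 2, where 11.9% of all entries lay below and 19.6% above. The counts changed when single arrays were left out, as did the shares of all entries. Without null sample 3, 7 genes (Ccl19, Ccl5, Ccr10, Ccr6, Ccr7, Ccr9 and Cxcr6) were lower at an adjusted p under 0.05, where 1.89% of all entries were lower. At under 0.1, 13 genes were lower in that fit, for which the share of all entries at 0.1 was not counted. Without any 1 of the other 5 arrays both counts were 0. In those fits 0.0244% to 0.122% of all entries were lower at an adjusted p under 0.05, against 0.337% with every array. Scaling on the spike-in controls moved the median of all entries to 0.28, and 27 of the 33 differences remained negative. With it 2 genes, Ccl5 and Ccr6, passed 0.05, where 0.475% of all entries were lower and 0.622% higher.

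**Figure D1:**
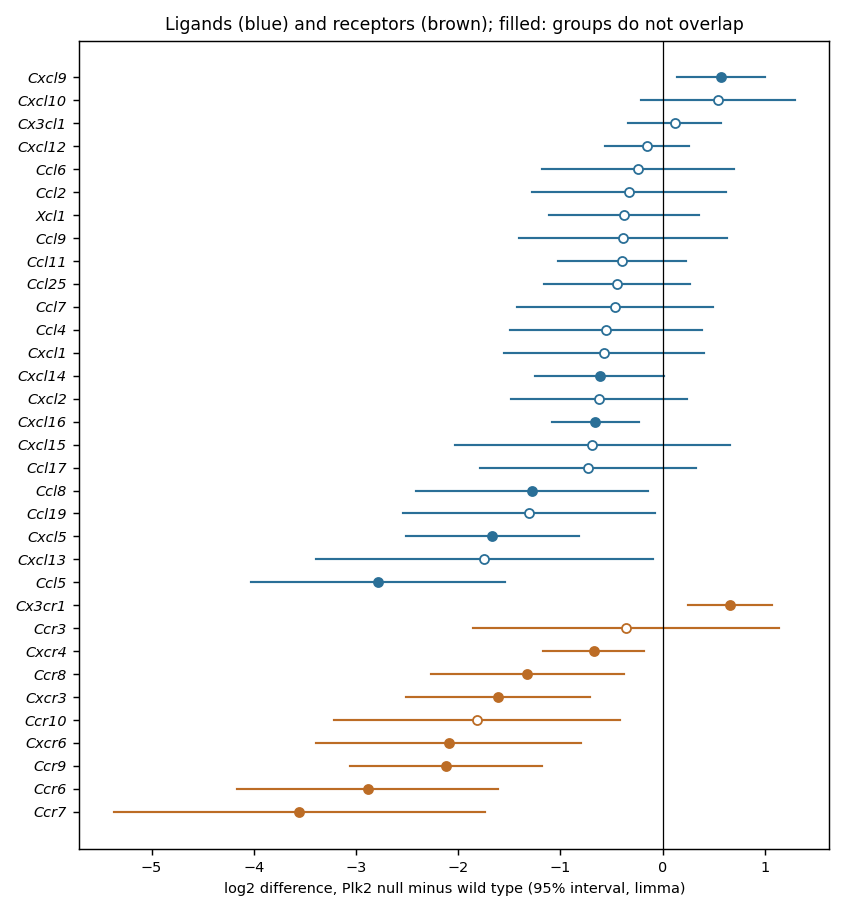
Difference in log2 level between null and wild-type samples for the 33 tested genes, with 95% intervals from limma. Ligands are blue and receptors brown, and filled points mark the 14 genes whose groups did not overlap. Of the 10 receptors 9 lie left of 0, Ccr7 farthest at -3.56.

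The receptors that guide lymphocytes into and through lymphoid tissue showed the widest gaps between the groups. Ccr7, which brings T cells and dendritic cells into lymph nodes, measured 5.86, 4.80 and 4.95 in wild-type samples 1 to 3 and 1.19, 0.35 and 3.40 in null samples 1 to 3. All null values lay below the wild-type values, and null sample 3 lay between the other null samples and wild type. The difference was -3.56 (95% interval -5.37 to -1.74), an 11.8-fold lower level (SE 0.76; limma adjusted p = 0.0800). Ccr6, found on B cells, on T helper cells that make interleukin 17 and on dendritic cells, measured 1.33, -0.0044 and 0.28 in wild type and -2.81, -2.97 and -1.28 in null. Its groups did not overlap either, and the difference of -2.89 (SE 0.54) had a limma adjusted p of 0.0647. The Ccr6 difference was smaller with normexp, at -1.96, and with the authors' deposited values, at -1.99.

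Receptors of mucosal and skin homing followed. Ccr9, which directs T cells and plasma cells to the small intestine, measured -1.88, -2.50 and -3.08 in wild type and -4.77, -5.08 and -3.96 in null, with only 1 null array well above background. The difference was -2.12 (SE 0.39; limma adjusted p = 0.0648), but -0.66 with normexp and -0.64 with the authors' deposited values. Ccr10, a receptor of plasma cells and skin-homing T cells, measured -2.43, -3.80 and -2.93 in wild type and -5.51, -5.47 and -3.64 in null, again with 1 null array well above background. Null sample 3 lay inside the wild-type range, so the groups of Ccr10 overlapped, and the difference of -1.82 (SE 0.58) had a limma adjusted p of 0.143 and shrank to -0.47 with normexp and -0.44 with the deposited values. Ccr8, a receptor of regulatory and type 2 helper T cells, measured -2.02, -3.33 and -3.33 in wild type and -4.46, -4.38 and -3.81 in null, without overlap. Its difference was -1.32 (SE 0.39; limma adjusted p = 0.126), -0.40 with normexp and -0.37 with the deposited values, and a further Ccr8 probe was well above background on 0 of the 6 arrays.

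The CXC receptors of activated T cells were also lower. Cxcr3, carried by type 1 helper and cytotoxic T cells and by NK cells, measured 0.01, -1.07 and -0.56 in wild type and -2.30, -2.65 and -1.51 in null. These groups were separate, with a difference of -1.61 (SE 0.38; limma adjusted p = 0.0912). Cxcr6, a receptor of tissue-resident T cells and NKT cells, measured 0.45, -0.47 and -0.16 in wild type and -3.003, -2.52 and -0.93 in null. The difference was -2.09 (SE 0.54; limma adjusted p = 0.101), and the other Cxcr6 probe gave -2.15. With normexp Cxcr3 came to -1.02 and Cxcr6 to -1.30. Cxcr4, a broadly expressed receptor of leukocytes and progenitor cells, had a smaller gap, with 0.78, 0.43 and 0.83 in wild type and 0.29, -0.31 and 0.03 in null. That difference, -0.68 (SE 0.21; limma adjusted p = 0.134), was also without overlap.

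Cx3cr1 ran the other way. This receptor of monocytes, resident macrophages and some cytotoxic lymphocytes measured -0.97, -0.72 and -0.82 in wild type and 0.05, -0.18 and -0.42 in null. Every null sample lay above every wild-type sample, with a difference of 0.66 (SE 0.17; limma adjusted p = 0.103), and the other Cx3cr1 probe gave 0.90, while normexp gave 0.36. Ccr3, the eotaxin receptor of eosinophils, measured -2.01, -3.001 and -4.18 in wild type and -3.16, -4.35 and -2.74 in null. The Ccr3 groups overlapped throughout, and the difference of -0.35 (SE 0.63) was -0.23 with normexp and -0.19 with the deposited values and turned to 0.17 without wild-type sample 1 and to 0.11 without null sample 2.

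The remaining receptors did not reach the brightness needed. Ccr1, an inflammatory receptor of monocytes and neutrophils, was well above background on 0 of the 6 arrays. Ccr2, the receptor of inflammatory monocytes, was well above background on 1 array of each group. Ccr4, a receptor of type 2 helper and regulatory T cells, was well above background on 2 wild-type arrays and no null array, with overlapping values. Cxcr2, the neutrophil receptor, was well above background on 1 wild-type array and no null array.

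**Figure D2:**
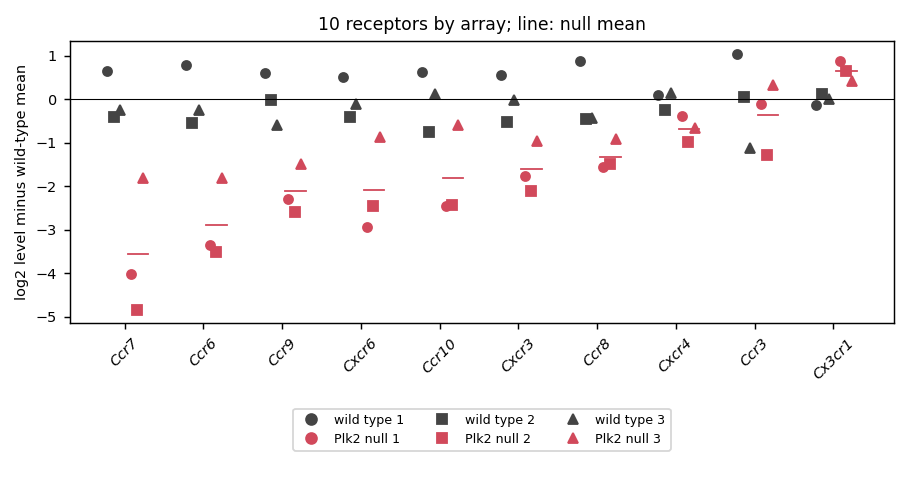
Levels of the 10 tested receptors on each array, minus the wild-type mean of that gene, on a log2 axis. Grey symbols are wild-type and red symbols null samples, the shape gives the sample number, and the red line is the null mean. Null sample 3 was the null sample nearest to the wild-type mean for 8 of the 10 receptors.

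Among the CC ligands, Ccl5 stood lowest against wild type. Ccl5, made by T cells, NK cells and many activated cells and a recruiter of T cells and monocytes, measured 6.81, 6.14 and 5.42 in wild type and 2.97, 2.70 and 4.35 in null. The groups did not overlap, and the difference was -2.78 (95% interval -4.02 to -1.55), a 6.89-fold lower level (SE 0.52; limma adjusted p = 0.0653). In the authors' deposited table Ccl5 has a signed fold of -7.26 and an unadjusted p-value of 0.0085. The other inflammatory CC ligands of that kind, mostly products of macrophages, had small and overlapping differences, -0.56 for Ccl4, -0.24 for Ccl6 and -0.39 for Ccl9 (SE 0.39 to 0.43). Ccl3 was well above background on 1 wild-type array only, and its groups overlapped.

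The ligands Ccl8, Ccl2 and Ccl7 had unequal differences. Ccl8, paired below with Ccr8 and not with Ccr2, measured 5.58, 4.62 and 4.26 in wild type. Its null values were 3.64, 2.74 and 4.25, separate by a narrow margin at null sample 3. Its difference was -1.27 (SE 0.47; limma adjusted p = 0.180). Ccl2, the main ligand of Ccr2, differed by -0.33 (SE 0.40) and Ccl7 by -0.46 (SE 0.40), both with overlapping groups. The eotaxin Ccl11 differed by -0.40 (SE 0.26), and Ccl17, a dendritic-cell ligand of Ccr4, by -0.73 (SE 0.44). Ccl22, the other Ccr4 ligand, was well above background on 0 of the 6 arrays.

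The ligands of lymphoid tissue, made largely by stromal and dendritic cells, were lower with wide spread. Ccl19, a ligand of Ccr7, measured 2.08, 1.49 and 1.12 in wild type and -0.10, -0.53 and 1.39 in null. Null sample 3 lay within the wild-type range, and the difference was -1.31 (SE 0.52; limma adjusted p = 0.196), with -0.87 and -0.80 from the other Ccl19 probes. Ccl19 has pseudogene copies and a further gene, Gm2023, that carries Ccl19 among its older names, so its values are uncertain. Cxcl13, which attracts B cells into follicles, measured 0.68, -0.87 and -0.63 in wild type and -2.38, -3.07 and -0.62 in null. The difference of -1.75 (SE 0.69; limma adjusted p = 0.198) again came with null sample 3 inside the wild-type range, and normexp gave -1.12.

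Mucosal ligands were mostly dim. Ccl25, the Ccr9 ligand of thymus and gut, measured -1.65, -0.63 and -0.69 in wild type and -1.46, -1.62 and -1.23 in null, with overlap. Its difference was -0.45 (SE 0.30) by the brighter probe and 0.72 by the other, so the 2 probes disagreed in sign. Ccl20, the Ccr6 ligand of epithelium, was well above background on 1 null array and no wild-type array, and no fold is given for it or for the other genes too dim to test. Ccl28, the ligand of Ccr10 in the lactating gland, was likewise well above background on 0 of 6. Xcl1, a product of activated T and NK cells, differed by -0.38 (SE 0.31).

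The neutrophil-recruiting CXC ligands were led by Cxcl5, an epithelial product. Cxcl5 measured 1.64, 0.90 and 0.39 in wild type and -0.44, -1.13 and -0.51 in null. All null values lay below wild type, by -1.67 on average (95% interval -2.51 to -0.82; SE 0.35; limma adjusted p = 0.0798). The neighbouring ligands did not separate: Cxcl1 differed by -0.58 (SE 0.41), Cxcl2 by -0.63 (SE 0.36) and Cxcl15 by -0.69 (SE 0.56), each with overlapping groups.

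The interferon-induced ligands were among the few with a higher null mean. Cxcl9, which attracts T cells through Cxcr3, measured 1.67, 1.61 and 1.95 in wild type and 2.46, 2.06 and 2.42 in null. All null samples were above wild type, by 0.57 (SE 0.18; limma adjusted p = 0.139), and the other Cxcl9 probe gave 0.48. Cxcl10 measured 4.53, 3.67 and 4.14 in wild type and 4.71, 4.15 and 5.12 in null, with overlap and a difference of 0.54 (SE 0.32). Cxcl11 was not matched to a probe and is not analysed here.

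Cxcl16, a membrane-bound ligand of Cxcr6 that macrophages and epithelial cells make, measured 3.13, 3.05 and 3.23 in wild type and 2.57, 2.17 and 2.69 in null. The wild-type values were tight, the groups were separate, and the difference was -0.66 (SE 0.18; limma adjusted p = 0.108). Cx3cl1, the membrane-bound ligand of Cx3cr1, measured 3.85, 4.35 and 4.40 in wild type and 4.22, 4.32 and 4.41 in null. That difference of 0.12 (SE 0.19) was within the spread and turned to -0.058 without wild-type sample 1. Cxcl12, the stromal ligand of Cxcr4, measured 4.52, 4.70 and 4.77 in wild type and 4.65, 4.24 and 4.62 in null. The groups overlapped, the difference was -0.15 (SE 0.17) with -0.46 from the other probe, and it became 0.092 with spike-in scaling. Cxcl14, an epithelial and stromal product, differed by -0.62 (SE 0.26), without overlap but at an unadjusted p of 0.0537.

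**Figure D3:**
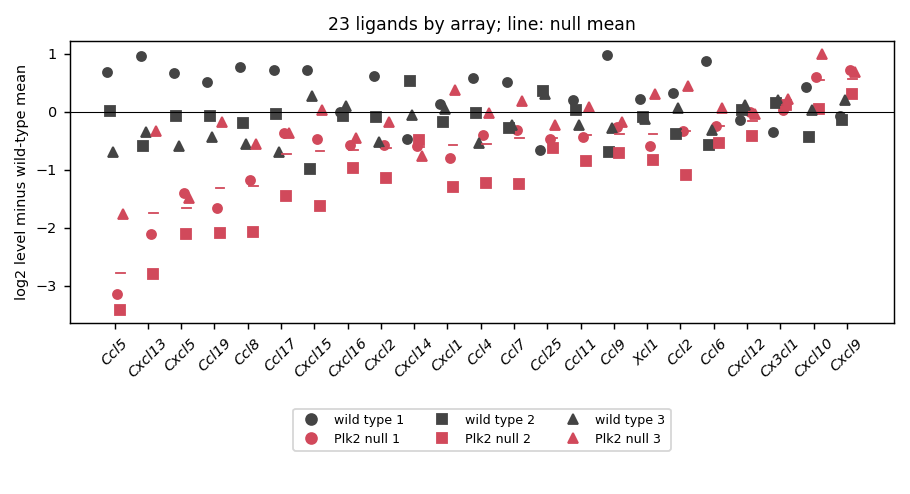
Levels of the 23 tested ligands on each array, minus the wild-type mean of that gene, on a log2 axis, with symbols as for the receptors. The red line is the null mean, lowest for Ccl5 and above 0 for Cx3cl1, Cxcl10 and Cxcl9.

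Receptors and ligands that bind each other were set side by side. Of 26 pairs listed, 11 had both genes tested, covering 8 receptors and 11 ligands, and the receptor had the more negative difference in 7. Cxcr3 at -1.61 stood opposite in sign to its ligands Cxcl9 at 0.57 and Cxcl10 at 0.54. Ccr7 at -3.56 stood beside Ccl19 at -1.31, Ccr9 at -2.12 beside Ccl25 at -0.45, and Cxcr6 at -2.09 beside Cxcl16 at -0.66. Ccr8 and Ccl8 were close, at -1.32 and -1.27. In the other direction, Ccr3 at -0.35 stood beside Ccl5 at -2.78. The differences between receptor and ligand were not tested, and pairs that share a gene are not independent.

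**Figure D4:**
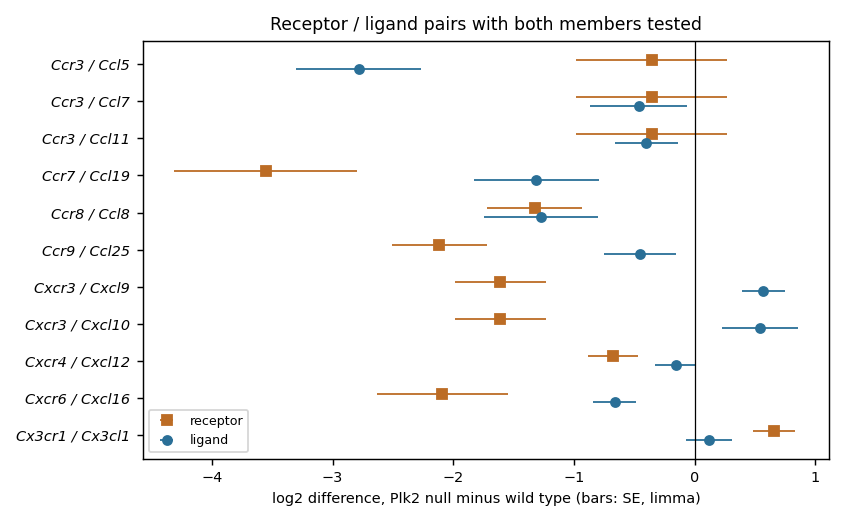
Difference in log2 level, null minus wild type, of the receptor (brown squares) and the ligand (blue circles) in the 11 pairs with both genes tested, with bars for the limma standard error. Only the pair Cx3cr1 and Cx3cl1 has both differences above 0.

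Many of these genes lie in clusters, and some neighbours had like and others unlike values. On chromosome 11 all 11 tested genes had a negative difference, 5 of them at an unadjusted p under 0.05, where 11602 of the 24609 entries were negative and 9.54% were lower at that threshold. The genes of this chromosome do not form a single cluster. Between Cxcl16 and Ccl2 lie 224 protein-coding genes, between Ccl4 and Ccr7 228, and between Ccr7 and Ccr10 102. Within the Ccl genes, Ccl5 is followed by Ccl9 and Ccl6 with 0 protein-coding genes between them, and these measured -2.78, -0.39 and -0.24. On chromosome 5, 5 of 7 tested genes were negative, from Cxcl13 at -1.75 to Cxcl9 at 0.57. On chromosome 9, Cx3cr1 and Ccr8 are adjacent, with 0 protein-coding genes between them, and measured 0.66 and -1.32. Adjacent genes were close elsewhere, with -0.33 for Ccl2 and -0.46 for Ccl7, and -0.69, -0.58 and -0.63 for Cxcl15, Cxcl1 and Cxcl2.

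The null samples were not alike. The median deviation from the wild-type mean over the 10 receptors was -2.02, -2.26 and -0.90 in null samples 1, 2 and 3, and over the 23 ligands -0.47, -1.10 and -0.038. Null sample 2 lay below all wild-type samples for 18 of 23 ligands and 9 of 10 receptors, and null sample 3 for 5 ligands and 7 receptors. Null sample 3 lay above all wild-type samples for 6 ligands, against 2 and 1 in null samples 1 and 2. The share of all entries outside the wild-type range was not counted for single arrays. These counts are therefore a description and show no trait of a sample or of the list.

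Markers of lymphocytes were also nearest to wild type in null sample 3. The 13 tested of 15 T and NK cell markers had a median difference of -2.53, with 12 lower at an unadjusted p under 0.05, where 9.54% of all entries were lower. Their medians were -3.09, -3.19 and -1.55 in null samples 1 to 3. Their summed level, on the linear scale relative to the 75th percentile, ranged from 25.0 to 41.5 in wild type and from 5.62 to 11.6 in null. Cd8b1, a subunit of the cytotoxic T cell co-receptor, was well above background on all 3 wild-type arrays and 1 null array, so its difference of -2.83 (SE 0.39; limma adjusted p = 0.0479) was measured largely against background. Zap70, above background on all 6 arrays, differed by -2.70. Cd247 was above background on no null array and passed the filter through wild type alone. Of the defining markers, Cd3d and Cd3e were well above background on all 6 arrays, Ncr1 on none and Klrb1c on 1. The 8 tested of 10 B and plasma cell markers had a median of -2.86, with 7 lower at an unadjusted p under 0.05, medians of -3.80, -3.58 and -1.36 by null sample and sums of 8.89 to 14.9 against 1.02 to 3.99. Cd79b differed by -2.49, Jchain by -2.60 and Cd79a, with 2 null arrays well above background, by -2.11. The part of these cells in the receptor and ligand values was not tested.

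Markers of the other cell types differed less. Null sample 3 was also nearest to wild type for macrophages, with medians of -0.37, -0.86 and -0.11 in null samples 1 to 3. The same held for endothelium (-0.24, -0.80 and 0.041) and fibroblasts (-0.37, -0.59 and -0.10). It did not hold for dendritic cells (-0.41, -0.71 and -0.44) or epithelium (0.080, -0.074 and 0.29). All 11 matched macrophage and monocyte markers were tested, with a median of -0.50, 2 lower and 1 higher at an unadjusted p under 0.05. Across all entries 9.54% were lower and 13.5% higher at that threshold. The macrophage and monocyte sums were 159 to 221 in wild type and 149 to 173 in null. Mrc1 differed by -0.93, Csf1r by -0.56 and Cd14 by 0.44. The 8 dendritic cell markers had a median of -0.53, with sums of 11.8 to 14.3 against 7.33 to 9.40, and 4 were lower at an unadjusted p under 0.05. Among these 4, Flt3 differed by -2.79 with 2 null arrays above background, and Cd209a, above background on no null array, passed the filter through wild type alone. Medians were -0.44 for 7 endothelial, -0.34 for 7 fibroblast, 0.26 for the tested adipocyte and 0.18 for 9 granulocyte and mast cell markers. The last list was mixed, with S100a8 at 1.47, Mcpt4 at -0.89 and Cpa3 at -0.87, and sums of 63.0 to 75.5 in wild type and 41.4 to 63.1 in null. The 3 tested lymphatic markers split too, with Lyve1 at -1.32, Prox1 at -0.61 and Pdpn at 1.53, and sums of 6.69 to 23.4 against 19.0 to 34.5. The summed epithelial markers ranged from 2171 to 2223 in wild type and from 2100 to 2688 in null.

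**Figure D5:**
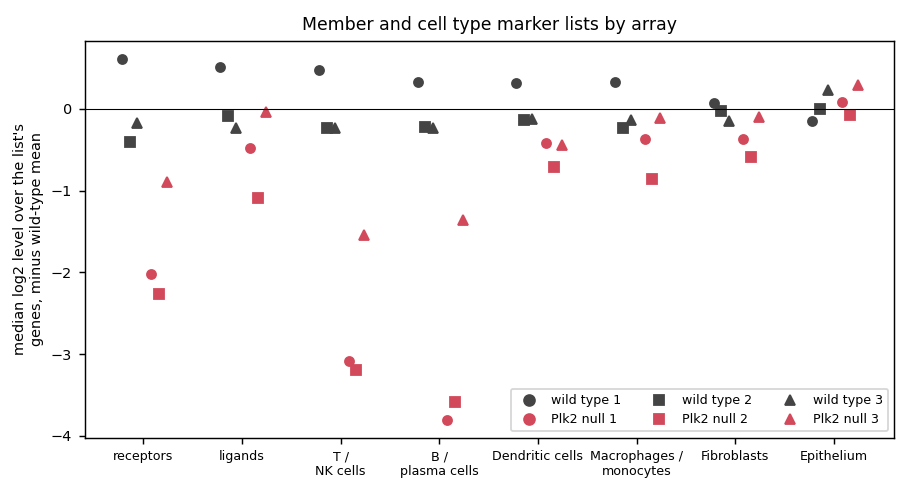
Median log2 level over each gene list on each array, minus the wild-type mean of each gene, for the receptors, the ligands and 6 cell type marker lists. Symbols are as for the receptors. The null samples lie between -3.80 and -1.36 for B and plasma cell markers and between -0.074 and 0.29 for epithelial markers.

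Genes around the chemokine system, from lists made by hand, were examined in the same fit. Of 19 other chemokines and chemokine-binding receptors, 13 were tested, with a median of -0.34, 2 lower and 1 higher at an unadjusted p under 0.05. Across all entries 9.54% were lower and 13.5% higher at that threshold. Cxcr5, the follicle-homing receptor of B cells that binds Cxcl13, was well above background on 3 wild-type arrays and 1 null array. Its difference of -4.08 (SE 1.08; limma adjusted p = 0.104) was thus largely against background, beside Cxcl13 at -1.75. Ccl27a, an epithelial ligand of Ccr10, differed by 0.56, a value that its near copy Ccl27b makes uncertain, and Cxcl3 by -0.96. Of 26 genes of receptor signalling, 22 were tested, with a median of -0.49, 8 lower and 0 higher at that threshold. The 3 with the smallest p were Pik3r5, a regulatory subunit of the G protein-coupled PI3-kinase gamma (-1.08), Fyb, an adaptor of T cell receptor signalling (-1.57), and Rassf5, a RAP1 effector (-0.65).

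Of 20 NF-kB and cytokine genes, 18 were tested, with a median of -0.28, 6 lower and 0 higher at an unadjusted p under 0.05 (limma). Across all entries 9.54% were lower and 13.5% higher at that threshold. Nfkb1, the p105 and p50 subunit, differed by -0.60 (SE 0.13; limma adjusted p = 0.0833), the lymphoid cytokine gene Ltb by -2.41 and Il13 by -1.56. Il13 was well above background on 3 wild-type arrays and 2 null arrays, so its difference was measured partly against background. The integrins, selectins and partners of leukocyte homing gave 14 tested of 15, with a median of -0.94, 9 lower and 0 higher. The T cell egress receptor S1pr1 differed by -0.89 and the selectin ligand Selplg by -1.41. None of the genes in these 4 lists passed an adjusted p of 0.05 (limma).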

How the data were processed

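Total RNA of 6 samples was hybridised, 1 sample per array, to 1-colour Agilent arrays (Cy3), per the labels' protocols. The deposited scanner files give each spot's intensity, background-corrected by Feature Extraction 11.0.1.1 per the file headers and not normalized between arrays. The authors' deposited series table gives normalized intensities, an unadjusted p-value and a signed fold, used as a score; how it was normalized is not stated in the labels or headers.

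Control and outlier spots were removed, log2 signals were centred on each array's 75th percentile, and spots of a probe were averaged. Probes were kept if well above background on 3 or more of the 6 arrays, and the brightest named a gene through RefSeq GRCm38.p6 accessions. Genotypes were compared with limma 3.58.1 in R 4.3.3 (lmFit, eBayes), adjusted by Benjamini-Hochberg over 24609 entries, with 40 missing values in all. The procedure was tested on simulated data. Genes that did not pass the filter were given no fold.

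The genes and lists were chosen with earlier results of these data known. Per-array values are given for genes at an unadjusted p under 0.05 and their listed partners, and up to 3 genes of each other list with the smallest p are named. Of the genes so chosen, a few are not reported here. Alternatives covered background correction, scaling, filters, probe choice, moderation, a replicate block, the deposited values and each array left out. The number of arrays limits the precision.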

Additional observations from a re-analysis of the deposited data

How the results depend on the processing

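Counts are of genes lower in null at an adjusted p under 0.05 unless stated, 0 of 33 members, 83 entries lower and 56 higher in the values above. Members numbered 4 with normexp background, 2 with spike-in scaling, 2 with genes above background on all 6 arrays, 5 with trended robust moderation and 3 with the deposited values. Entries lower and higher were 517 and 722 with normexp, 167 and 179 with median centring, 26 and 5 with no filter, 176 and 204 above background on all 6 arrays, 388 and 459 with trended moderation and 383 and 387 with the deposited values, while spike-in scaling gave 117 and 153. At an adjusted p under 0.1, 10 members were lower with trended moderation against 6, and 0 with no filter. Higher members at that threshold were 1 with normexp, quantile normalization, median centring, the filter on all 6 arrays or the mean of a gene's probes, 2 with trended moderation and 2 with the deposited values. For all alternatives, including the arrays left out below, entries were counted at an adjusted p under 0.05 only. Member counts at other thresholds thus have no share of all entries beside them. The receptor median was -0.63 both with normexp and with the deposited values, against -1.71. The ligand medians in these 2 settings were -0.49 and -0.59, against -0.56. Ccl25 turned to 0.14 with the mean of its probes and Cxcl12 to 0.092 with spike-in scaling. With replicate number as a block, 6 entries were lower, 2 were higher and 0 members were called even at 0.1. Deviations of samples with the same number correlated at -0.12, 0.038 and -0.018. Whether the numbers pair the samples is not stated in the labels, and these correlations cannot settle it. Leaving out 1 array gave 0 to 7 members, 6 to 465 entries lower and 1 to 239 higher, 0 to 13 members lower and 0 to 1 higher at 0.1, and 1 to 3 higher at an unadjusted p under 0.05. Over those fits Ccr3 ranged from -0.91 to 0.17 and Cx3cl1 from -0.058 to 0.22. The causes were not tested. Signal near background limits Ccr8, Ccr9, Ccr10 and the 8 genes not tested, among others.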
